A study of Homo sapiens with 12 samples.

Results

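The transcripts described here belong to 8 genes of ferroptosis, a form of cell death driven by the peroxidation of membrane lipids: ACSL4, ACSL3, LPCAT3 and POR on the side of the lipid substrates and their oxidation, and GPX4, AIFM2, DHODH and GCH1 on the side of defence. ACSL3 is set with the lipid substrates, but among the fatty acids it activates are monounsaturated ones, which resist peroxidation. The 8 genes were chosen by symbol for these known roles, with earlier results of these data known. Each was found once among the 55765 gene symbols listed for every library. All 8 passed the filter on low counts in every comparison, so none drops out of the values below.

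RNA was sequenced from Hs 578T, a line of human triple negative breast cancer (TNBC) cells, which had received a lentivirus carrying either GFP, the control, or full-length NRF2, the transcription factor of the oxidative stress response encoded by NFE2L2. Each was grown for 8 h in a medium free of cystine (Cyss), to which 0.8 mM Cyss was added for the cells with Cyss and none for the cells w/o Cyss; methionine, glutamine and serum were given to all. The 4 groups are therefore GFP with Cyss, GFP w/o Cyss, NRF2 with Cyss and NRF2 w/o Cyss, with 3 libraries in each. All cells carried a vector, none of these libraries is of untransduced cells, and reads of the exogenous NRF2 cannot be told apart from those of the gene itself in these counts.

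Cyss taken up by the cell is reduced to cysteine, a building block of glutathione, and glutathione is the reductant that GPX4 uses to turn lipid hydroperoxides into harmless alcohols. Cells short of Cyss can therefore die by ferroptosis when polyunsaturated fatty acids in their membranes are oxidized. ACSL4 and LPCAT3 place those fatty acids into phospholipids and POR feeds electrons into their oxidation, whereas AIFM2 (the protein FSP1), DHODH and GCH1 act beside GPX4 through radical-trapping quinols and tetrahydrobiopterin. Whether the cells sequenced here undergo ferroptosis was not tested in these libraries. The paper reports that blocking glutathione synthesis hardly changed the survival of its cell lines. For death w/o Cyss it hypothesizes mitochondrial oxidative stress.

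Reads on genes ranged from 27251000 to 44596900 per library (rounded), with a median of 32857500. NFE2L2 was higher in every NRF2 library, where the lowest normalized count was 6598, than in any GFP library, where the highest was 4655, so the vectors went with their labels. The mesenchymal markers VIM, FN1, CDH2 and ZEB1 were abundant. The epithelial genes CDH1, EPCAM, CLDN3, CLDN7 and KRT19 lay at or near 0 with at most 12 reads in any library. KRT8 and KRT18 had up to 236 and 1423. The leukocyte gene CD3E had no read, the leukocyte genes PTPRC and CD68 at most 60 and 19, and the endothelial gene CDH5 at most 2. Of the receptors whose lack defines TNBC, the genes ESR1 and PGR had at most 15 and 21 reads in any library. ERBB2, the gene of the receptor HER2, had up to 1801, so its transcript was present. Protein was not measured in these libraries. On the first principal component of the 500 most variable genes, replicate 3 of GFP w/o Cyss lay at 4.07 and the other libraries of its group at -4.23 and -1.89, and replicate 1 of NRF2 w/o Cyss had the highest share of reads outside genes, 7.84%. In these bulk libraries, fewer cells expressing a gene and less RNA per cell cannot be told apart. Nothing in the labels says whether the libraries of a group came from separate cultures, so the tests measure only the spread between these libraries.

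Per length of exon, GPX4 was by far the most abundant of the 8 transcripts. Its level over the 12 libraries ran from 75.5 to 91.1 RPKM (reads normalized to exon length and to TMM-scaled library size; lowest to highest), with a median of 81.3. ACSL4 followed at 15.5 to 20.8, then ACSL3 at 9.82 to 11.8 and POR at 6.30 to 8.13. The ranges of these 4 genes did not touch. AIFM2, at 3.37 to 4.90, and LPCAT3, at 2.92 to 3.59, were neighbours whose ranges overlapped. DHODH lay at 0.459 to 0.637 and GCH1, the lowest, at 0.156 to 0.412, from only 14 to 46 reads in a library. The lengths were those of the current annotation and not of the one used for counting.

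**Figure D1:**
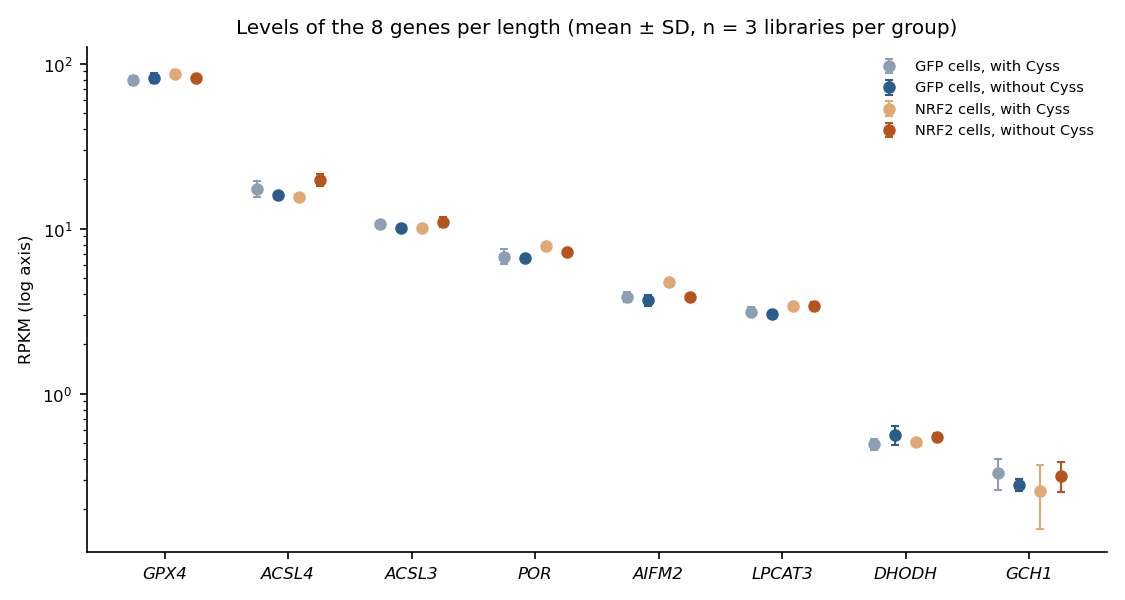
Level of each of the 8 genes in RPKM, on a log axis; points are group means and bars the SD of 3 libraries. GPX4 stands highest at about 82.5 on average over the 12 libraries and GCH1 lowest at 0.297, with the widest bars.

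On GRCh37, GPX4 spans chr19:1103981-1106790 on the plus strand, and ACSL4 chrX:108867473-108976632 on the minus strand. ACSL3 lies at chr2:223725660-223809357 (plus), POR at chr7:75528518-75616173 (plus), LPCAT3 at chr12:7085347-7125781 (minus), AIFM2 at chr10:71857979-71892690 (minus), DHODH at chr16:72042487-72061563 (plus) and GCH1 at chr14:55308726-55369544 (minus). The libraries were counted without regard to strand, which touches 2 of these genes in particular. Of the exon length of LPCAT3, 66.0% is shared with EMG1 on the opposite strand, and of that of AIFM2, 19.2% is shared with MACROH2A2. These shares are those of the current annotation, and the version used for counting is not given. If it held the same overlaps, reads lying wholly in such stretches could not be given to either gene. The levels of LPCAT3 and AIFM2 per length are therefore uncertain, and any effect on their differences was not tested. For ACSL3, ACSL4 and POR the shared part was at most 2.79%.

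NRF2 binds the antioxidant response element (ARE), and 6 of the 8 genes had a promoter window of 250 bases before to 50 after the start in the RefSeq table of GRCh38.p14, in which the ARE core TGACNNNGC was sought on both strands. Among the 8 windows of these genes (GPX4 has 3 starts), only that of AIFM2 held a match. AIFM2 is also the gene of the 8 with the lowest adjusted p for NRF2 against GFP cells with Cyss, so its 250 bases upstream, chr10:70132826-70133075 on the minus strand, are shown 5′ to 3′ with the match in capitals.
AIFM2 promoter: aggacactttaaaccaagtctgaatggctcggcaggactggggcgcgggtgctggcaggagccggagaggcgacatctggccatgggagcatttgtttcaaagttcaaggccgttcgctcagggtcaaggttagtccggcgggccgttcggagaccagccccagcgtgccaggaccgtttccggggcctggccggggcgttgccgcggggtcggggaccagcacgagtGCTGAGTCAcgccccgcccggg
The match covers bases -22 to -14 before the start and reads TGACTCAGC on the opposite strand, which also contains the AP-1 letters TGACTCA. The ARE core occurs in 4687 of 35116 RefSeq windows, or 13.3%, so 1 gene of 6 holding it is a description only. The ATF4/CHOP element TGATGNAA, found in 3.62% of all windows, was in none of the 8. GCH1 and POR had no entry.

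The question of the first comparison was what 8 h w/o Cyss did to these transcripts in GFP cells. None of the 8 was called, a call being an adjusted p under 0.1 with a log2FC over 0.32 in size; adjusted p-values throughout are those of edgeR's quasi-likelihood test over all genes tested, with Benjamini-Hochberg adjustment. Over 17452 genes, 1.57% were called higher and 0.533% lower, and 5.92% had an adjusted p under 0.1 in either direction, a level that none of the 8 reached either. No unadjusted p of the 8 lay under 0.05, against 3160 of all genes, and DESeq2's Wald test also called 0 of the 8. The median log2FC of the 8 was -0.06, beside 0.0015 over all genes tested.

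GPX4, the selenoenzyme that reduces lipid hydroperoxides, had normalized counts of 4672, 5268 and 4757 in GFP cells with Cyss and of 4823, 5442 and 4941 w/o Cyss. The groups overlapped almost entirely, and replicate 2 was the highest in each. The log2FC was 0.05 ± 0.05 (SE), with a 95% interval from -0.07 to 0.17, or from 0.95-fold to 1.12-fold. Without replicate 2 of GFP w/o Cyss its sign turned, at -0.01.

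ACSL4, which activates arachidonic and adrenic acid for membrane lipids, was at 6615, 5401 and 5581 with Cyss and at 5259, 5211 and 5583 w/o Cyss. Replicate 1 with Cyss stood alone above the others, and the groups overlapped. The log2FC was -0.13 ± 0.07 (adjusted p = 0.301), and it was -0.04 without that library. ACSL3, which activates long-chain fatty acids, among them the monounsaturated ones that resist peroxidation, was at 5355, 5080 and 5021 with Cyss and at 4864, 4928 and 4962 w/o Cyss. These groups did not overlap, but the difference was small, with a log2FC of -0.07 ± 0.04 (adjusted p = 0.377). How many of all genes had groups that did not overlap was not counted, here or in the comparisons below, so such separations are descriptions only.

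None of the other 5 genes passed either. LPCAT3, which inserts polyunsaturated acyl chains into phospholipids, had means of 495 ± 32.1 (SD, n = 3) with and 480 ± 9.02 w/o Cyss. POR, the reductase that passes electrons from NADPH to cytochrome P450 enzymes, had means of 1416 ± 148 and 1380 ± 29.4. AIFM2, which regenerates ubiquinol at the plasma membrane, had means of 665 ± 43.2 and 633 ± 48.0. DHODH, which reduces ubiquinone in mitochondria while making pyrimidines, had means of 115 ± 8.31 and 130 ± 16.8. GCH1, the first enzyme of tetrahydrobiopterin synthesis, had means of 32.6 ± 6.92 and 27.4 ± 2.33. For GCH1 the interval of the log2FC ran from -0.70 to 0.22, so a change of moderate size was not detectable at this depth.

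**Figure D2:**
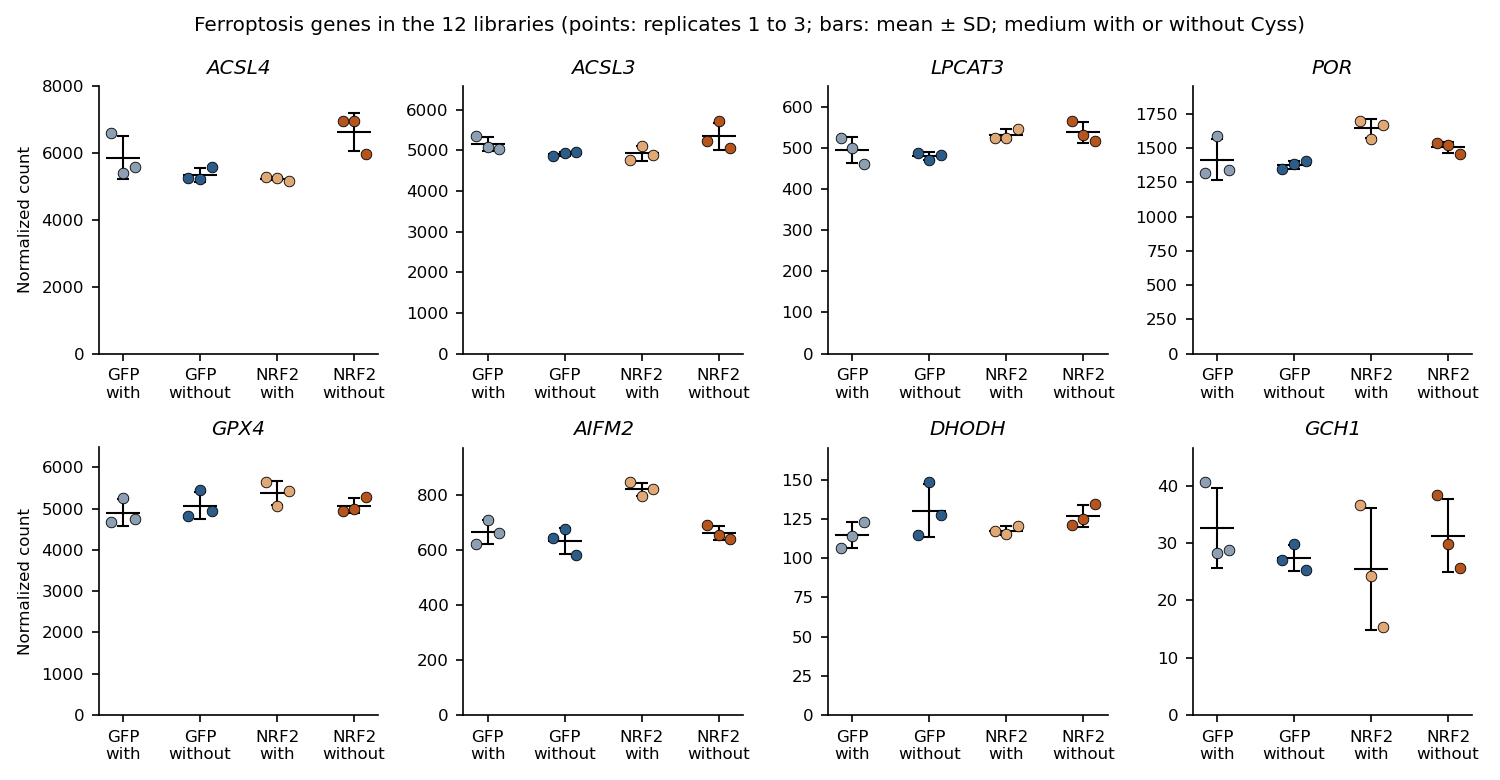
Normalized counts of the 8 genes in the 12 libraries, by group, on axes that start at 0; points are replicates 1 to 3, horizontal bars the mean and whiskers the SD. ACSL4 is highest in NRF2 cells w/o Cyss (5979 to 6965), apart from 1 library of GFP with Cyss at 6615, and AIFM2 is highest in NRF2 cells with Cyss (798 to 846).

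In NRF2 cells w/o Cyss, ACSL4 was higher and AIFM2 and POR were lower, by small amounts. ACSL4 was called, and AIFM2 and POR had adjusted p-values under 0.1 with a log2FC inside 0.32. That is 1 of 8 called higher and 0 lower, and 3 of 8 with an adjusted p under 0.1. Of 17266 genes tested, 6.81% were called higher, 5.14% lower, and 29.0% had an adjusted p under 0.1, so the count over the 8 genes is near the background. Scaling by library size alone turned the split over all genes from 1176 higher and 887 lower into 936 and 1397. The median log2FC of the 8 was 0.06, beside -0.01 over all genes tested.

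ACSL4 was at 5293, 5244 and 5178 in NRF2 cells with Cyss and at 6954, 6965 and 5979 w/o Cyss. Every library w/o Cyss exceeded every library with Cyss, replicate 3 by the least. The rise was 1.26-fold (95% interval 1.16 to 1.38), a log2FC of 0.34 ± 0.06 (SE) with an adjusted p of 0.00058. The call sat on the fold threshold. It was lost at a log2FC of 0.31 without replicate 1 of NRF2 w/o Cyss, at 0.30 without its replicate 2 and at 0.28 when libraries were scaled by size alone, with adjusted p-values of at most 0.00595 in these fits. ACSL4 has a low GC content, 35.5% against a median of 47.5% over genes tested, and a longest transcript of 7223 bases. Across genes with a value, Spearman's rho with the log2FC of this comparison was -0.10 for GC content and 0.19 for transcript length. A joint correction for GC and length, added after seeing the data, left ACSL4 at 0.24 (adjusted p = 0.00012).

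AIFM2 was at 846, 798 and 820 with Cyss and at 690, 656 and 641 w/o Cyss. The groups did not overlap. The difference was -19.4% (log2FC -0.31 ± 0.06, 95% interval -0.44 to -0.18, adjusted p = 0.00186), just inside the fold threshold. Over the 16 alternatives it ranged from -0.37 to -0.27 and its adjusted p never exceeded 0.0143, and it was called in 4 of them, which were library size alone (-0.37), no fold threshold, and the fits without replicate 2 of NRF2 with Cyss (-0.33) or replicate 1 of NRF2 w/o Cyss (-0.34). POR was at 1700, 1570 and 1672 with Cyss and at 1539, 1523 and 1459 w/o Cyss. Here too the groups did not overlap. The log2FC of POR was -0.13 ± 0.05 (adjusted p = 0.0908). Over the 16 alternatives it stayed negative, from -0.19 to -0.08, but its adjusted p ran from 0.0158 to 0.275. DESeq2's Wald test gave an adjusted p of 0.19 and the GC and length correction 0.194. Without replicate 1 or 3 of NRF2 with Cyss it was 0.275 and 0.25. Without replicate 2 or 3 of NRF2 w/o Cyss it was 0.164 and 0.161.

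GPX4 did not pass the test in NRF2 cells. It was at 5634, 5054 and 5423 with Cyss and at 4933, 4997 and 5288 w/o Cyss. The groups overlapped, with a log2FC of -0.08 ± 0.05 (95% interval -0.19 to 0.02). GPX4 has a GC content of 62.5% and a longest transcript of 1184 bases, and its value after GC and length correction was 0.01.

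ACSL3 was at 4764, 5107 and 4893 with Cyss and at 5234, 5724 and 5064 w/o Cyss in NRF2 cells. The groups overlapped by a narrow margin, and the log2FC of 0.12 ± 0.05 did not pass (adjusted p = 0.132). LPCAT3 had means of 532 ± 13.0 (SD, n = 3) and 538 ± 25.4. DHODH had means of 118 ± 2.78 with and 127 ± 6.88 w/o Cyss, and although its libraries did not overlap, the interval of its log2FC ran from -0.13 to 0.35. GCH1 was at 36.6, 24.3 and 15.3 with Cyss and at 38.3, 29.9 and 25.7 w/o Cyss. This is the widest relative spread of the 8 genes, and the interval of its log2FC, from -0.30 to 0.92, covers both a fall and a rise.

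With Cyss, AIFM2 and POR were higher in NRF2 than in GFP cells. Neither was called, since both lay inside the fold threshold, so 0 of 8 were called where 1.36% of 17449 genes were called higher and 0.201% lower. With an adjusted p under 0.1 there were 2 of 8, both higher, against 6.43% of all genes. DESeq2's Wald test also called 0 of the 8, of which 4 had an unadjusted p under 0.05 in edgeR's test, against 3321 of all genes. The median log2FC of the 8 was 0.07, beside -0.0039 over all genes tested.

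AIFM2 in GFP cells with Cyss was at 623, 710 and 662. All of these lay below the 798 to 846 of NRF2 cells with Cyss. The log2FC was 0.30 ± 0.06 (95% interval 0.18 to 0.42), a ratio of 1.23 with an adjusted p of 0.00799. It crossed the fold threshold without replicate 2 of GFP with Cyss, at 0.35, and without replicate 2 of NRF2 with Cyss, at 0.32. POR in GFP cells with Cyss was at 1318, 1587 and 1344. Its replicate 2 reached into the range of the NRF2 cells. The log2FC of POR was 0.21 ± 0.06 (adjusted p = 0.0706). Over the fits that left out 1 library it ran from 0.16 to 0.30, with adjusted p-values from 0.00398 to 0.279. The adjusted p was 0.279, 0.22 and 0.254 without replicate 1 of NRF2 with Cyss, its replicate 3 or replicate 3 of GFP with Cyss.

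The GC content of a gene went with its difference in this comparison. Across the 14601 genes with a value, Spearman's rho between GC content and log2FC was 0.43; genes are not independent replicates. AIFM2 and POR have a GC content of 56.1% and 58.9%, above the median. After GC and length correction AIFM2 stood at 0.25 (adjusted p = 0.00482) and POR at 0.14 (adjusted p = 0.0924).

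Of the genes that did not pass with Cyss, GPX4 was higher in NRF2 cells by a log2FC of 0.13 ± 0.05 (adjusted p = 0.155), and 0.05 after the same correction. With 1 library left out, GPX4 ran from 0.09 to 0.18, with adjusted p-values from 0.0367 to 0.474. ACSL4 was lower in each NRF2 library (5178 to 5293) than in each GFP library (5401 to 6615), but its log2FC of -0.16 ± 0.06 did not pass (adjusted p = 0.131) and was -0.07 without replicate 1 of GFP with Cyss. Over the fits that left out 1 library, ACSL4 ran from -0.22 to -0.07, with adjusted p-values from 0.0406 to 0.315. ACSL3, LPCAT3 and DHODH differed by -0.07, 0.10 and 0.04 on the log2 scale. For GCH1 the interval was again wide, from -0.94 to 0.20.

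W/o Cyss, ACSL4 was the gene of the 8 that differed most clearly between NRF2 and GFP cells. It was the only 1 of 8 with an adjusted p under 0.1, a level reached by 28.8% of 17297 genes. None was called, against 5.98% of all genes called higher and 4.09% lower. This comparison shares its libraries with both comparisons of cells w/o against with Cyss. By library size alone the split over all genes was 876 higher and 1001 lower in place of 1034 and 708. The unadjusted p was under 0.05 for 3 of the 8 and for 5962 genes in all, and DESeq2's Wald test called 0 of the 8.

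ACSL4 was at 5979 to 6965 in NRF2 cells and at 5211 to 5583 in GFP cells. The groups did not overlap. The log2FC was 0.30 ± 0.06 (95% interval 0.16 to 0.43, adjusted p = 0.00662). Leaving out replicate 3 of NRF2 w/o Cyss, at 0.37, or replicate 3 of GFP w/o Cyss, at 0.33, took it past the fold threshold, and the GC and length correction brought it to 0.18 (adjusted p = 0.00773).

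AIFM2 did not pass w/o Cyss. Its means were 662 ± 25.3 (SD, n = 3) in NRF2 cells and 633 ± 48.0 in GFP cells, and the log2FC of 0.05 had an interval from -0.10 to 0.20. GPX4 had nearly equal means, 5073 ± 189 and 5069 ± 329, and an interval from -0.13 to 0.11. ACSL3, LPCAT3 and POR had higher values in each NRF2 library than in any GFP library w/o Cyss, with a log2FC of 0.11, 0.15 and 0.11. None of the 3 passed, at adjusted p-values of 0.172, 0.132 and 0.135, and the share of all genes with such a separation was not counted. DHODH, at -0.05, and GCH1, at 0.18, had intervals that held 0.

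Whether NRF2 changed these responses was asked with an interaction term over the 12 libraries, the response in NRF2 cells minus that in GFP cells. ACSL4 and ACSL3 were called higher, 2 of 8, and none lower, at an adjusted p under 0.1. Over 17674 genes 8.97% were called higher and 6.13% lower. Scaling by library size alone turned 1585 higher and 1084 lower into 1124 and 1981. The median difference of the 8 was -0.0060, beside -0.01 over all genes tested.

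For ACSL4 the log2 response was -0.13 in GFP cells but 0.34 in NRF2 cells. The difference was 0.47 ± 0.09 (95% interval 0.28 to 0.67, adjusted p = 0.00449), and it stayed past the threshold in all of the 20 alternatives, between 0.29 and 0.54. The lowest of these, 0.29, was after GC and length correction. Without replicate 1 of GFP with Cyss, the highest GFP library, the difference was 0.38 (adjusted p = 0.00733).

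For ACSL3 the responses were -0.07 and 0.12, and the difference of 0.18 ± 0.07 passed by a narrow margin (adjusted p = 0.0873). It was lost in 11 of the 20 alternatives. Among them were the GC and length correction, at 0.01 (adjusted p = 0.949), library size alone, at 0.13, and 7 of the 12 fits that left out 1 library, in which it ran from 0.13 to 0.20: those without replicate 1 or 3 of NRF2 with Cyss, replicate 2 of NRF2 w/o Cyss, replicate 1 or 3 of GFP with Cyss, or replicate 1 or 2 of GFP w/o Cyss. ACSL3 has a GC content of 37.1% and a longest transcript of 8441 bases. Across genes with a value, Spearman's rho with the interaction difference was -0.18 for GC content and 0.29 for transcript length. What part of the difference of ACSL3 goes with either was not tested beyond this joint correction.

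AIFM2 had the opposite sign. It responded by -0.07 without and by -0.31 with exogenous NRF2, and the difference of -0.24 ± 0.09 missed the threshold (adjusted p = 0.11). It passed in 5 of the 20 alternatives, namely library size alone (-0.29), the replicate block, and the fits without replicate 1 of NRF2 w/o Cyss (-0.27), replicate 2 of GFP with Cyss (-0.29) or replicate 3 of GFP w/o Cyss (-0.29, adjusted p = 0.0436). GPX4 had a difference of -0.13 with an interval from -0.30 to 0.04, POR one of -0.09, DHODH one of -0.07 and LPCAT3 one of 0.06. GCH1 had the largest value, 0.56, with the widest interval, from -0.22 to 1.33, so nothing can be read from it at 14 to 46 reads a library.

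**Figure D3:**
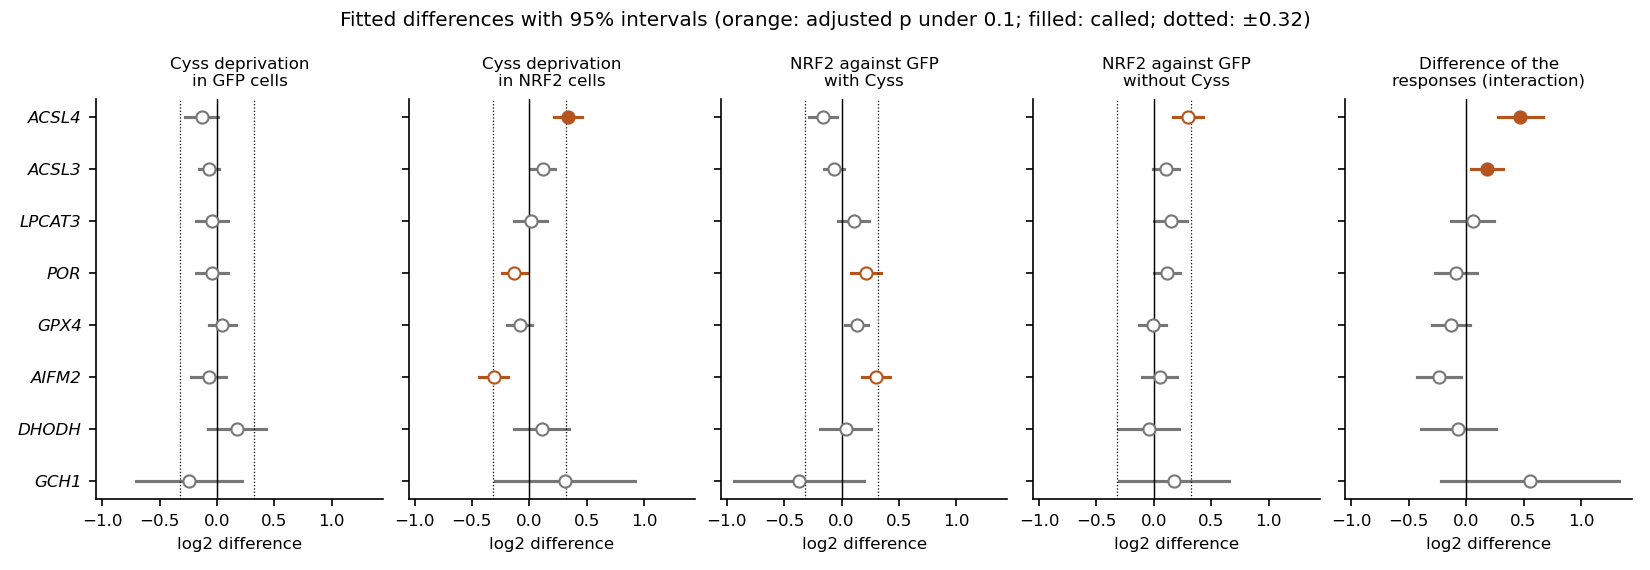
Fitted log2 differences of the 8 genes in the 4 comparisons and in the interaction, with 95% intervals; orange marks an adjusted p under 0.1, filled points are called, and dotted lines show the fold threshold of 0.32. ACSL4 is filled for Cyss deprivation in NRF2 cells (0.34) and in the interaction (0.47), and the intervals of GCH1 are the widest.

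Over the 12 libraries, ACSL4 and ACSL3 had Pearson's r of 0.84 for log2 normalized counts, and AIFM2 and POR one of 0.83, the highest among the 8 genes. GPX4 ran with POR at 0.71 and with AIFM2 at 0.64, and against ACSL4 at -0.48. DHODH reached at most 0.40 with any of the others (GPX4) and GCH1 at most 0.55 (ACSL4). These are descriptions over 12 libraries that share 4 group means and ties to GC content and transcript length, and no test was made.

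Among 13528 other genes with a mean of 50 normalized counts or more (13529 for GCH1), 3 were most like each of the 8. For ACSL4 they were UBA6, OSBPL8 and LATS1, with r of 0.98, 0.97 and 0.97. For GPX4 they were NUBP2, RNH1 and LMF2 (0.98, 0.97 and 0.95), and for AIFM2 CTIF, COL16A1 and BAI2 (0.98, 0.95 and 0.95). ACSL3 was closest to UFM1, ATF1 and SMIM13 (0.94 to 0.90), and POR to GNB2, SRGAP3 and LEPREL2 (0.91 to 0.90). LPCAT3 was closest to AFF1, RP3-368A4.6 and DIO2 (0.90 to 0.89), DHODH to MMP24-AS1, GIPC1 and PFN1 (0.86 to 0.84) and GCH1 to C8orf37, TMEM184C and SIKE1 (0.85 to 0.82).

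Around the 8 genes stand 69 others of the same processes, in 8 lists, of which 60 or 61 were tested. The lipoxygenases ALOX5, ALOX12B, ALOX15, ALOX15B and ALOXE3, with ACSL6, CYBB and GPX2, had too few reads in every comparison, and NOX1 in the comparison within NRF2 cells. In GFP cells, 7 of 61 had an adjusted p under 0.1 for Cyss deprivation, 6 of them lower, against 5.92% of all genes in either direction. With the fold threshold, 0 of 61 were called higher and 1 lower, against 1.57% and 0.533% of all genes. The 1 was ALDH3A2, the fatty aldehyde dehydrogenase that removes products of lipid peroxidation, with a log2FC of -0.33 ± 0.06 (adjusted p = 0.0055), and the call was lost on the fold threshold without replicate 3 of GFP with Cyss (-0.32), without replicate 3 of GFP w/o Cyss (-0.28) and after GC and length correction (-0.31). Its counts were 1058, 1049 and 1080 with Cyss and 847, 907 and 791 w/o Cyss.

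In NRF2 cells 9 of 60 were called lower and 0 higher, where 5.14% and 6.81% of all genes were. An adjusted p under 0.1 was reached by 21 of 60, 19 of them lower, against 29.0% of all genes in either direction. The median log2FC over the lists was -0.11, beside -0.01 over all genes. Of the 8 tested enzymes on the list of other peroxide and aldehyde removal, 7 had a negative log2FC, 5 of them with an adjusted p under 0.1, and 4 were called lower. This list is a selection, and other enzymes that remove peroxides or aldehydes are not on it. ALDH3A2 fell by 0.68 on the log2 scale, from a mean of 1266 ± 21.2 (SD, n = 3) to 791 ± 71.9. MGST1, a microsomal glutathione transferase with peroxidase activity, fell by 0.40, from 5582 ± 43.0 to 4249 ± 314. It was also lower w/o Cyss in GFP cells, inside the fold threshold, with a log2FC of -0.19 (adjusted p = 0.0111). GPX1, the cytosolic glutathione peroxidase, fell by 0.37, with -0.27, inside the fold threshold, after GC and length correction. GSTA4, which conjugates the aldehyde 4-hydroxynonenal, fell by 0.38, from 847 ± 15.6 to 653 ± 7.09. MBOAT1, an acyltransferase that favours monounsaturated chains, fell by 0.50, from 373 ± 39.4 to 265 ± 16. The adjusted p-values of these 5 in NRF2 cells were at most 0.00109.

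By list, MBOAT1 and the remaining calls in NRF2 cells fell into 3 groups. Among the 14 genes of fatty acid activation and phospholipid remodelling 2 were called lower and 12 had a negative log2FC. Among the 13 of coenzyme Q synthesis these numbers were 2 and 9, and among the 6 of tetrahydrobiopterin 1 and 6. No gene of ether lipid synthesis (5 tested), lipid oxidation (4), selenocysteine supply to GPX4 (8) or pyrimidine synthesis beside DHODH (2) was called. Inside the fold threshold, an adjusted p under 0.1 was reached by 2 genes of selenocysteine supply and 1 of lipid oxidation, all lower. It was also reached by 1 of ether lipid synthesis, higher.

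**Figure D4:**
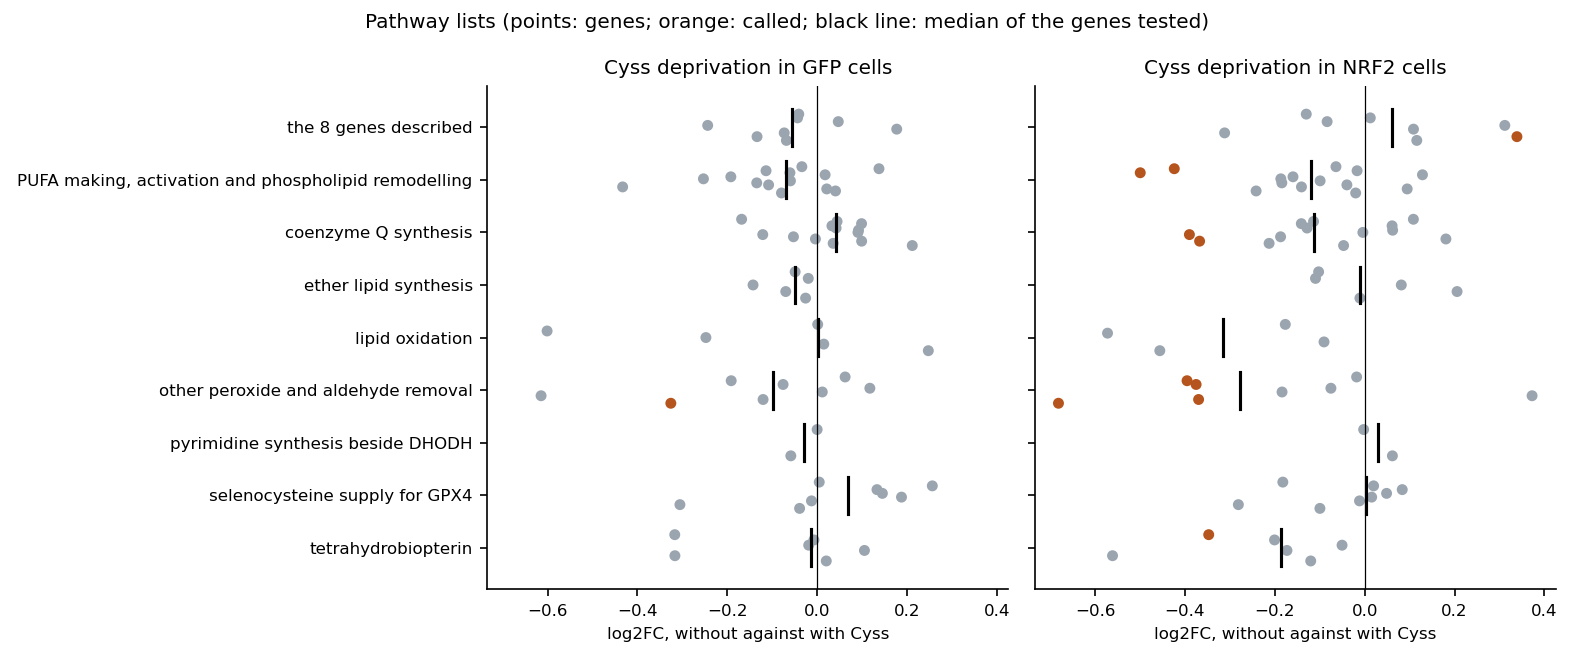
Log2FC of each tested gene under Cyss deprivation, with GFP cells on the left and NRF2 cells on the right, for the 8 genes described and the 8 lists; orange points are called and black lines are medians of the genes tested. In NRF2 cells 9 list genes are called, all lower, 4 of them among the enzymes of other peroxide and aldehyde removal.

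NRF2 cells with Cyss had 2 of 61 list genes called higher and 0 lower, against 1.36% and 0.201% of all genes. ACSL5, an acyl-CoA synthetase of the family of ACSL4 and ACSL3, was at 65.8, 89.8 and 83.3 against 37.03, 41.0 and 31.5 in GFP cells. The groups stood well apart, with a log2FC of 1.12 ± 0.17 (adjusted p = 0.00092), though per length ACSL5 was far below ACSL4, at 0.573 against 15.6 RPKM. PLA2G6, a phospholipase that cleaves oxidized phospholipids, was higher by 0.51 ± 0.09 (adjusted p = 0.00355), at 245 ± 20.9 against 172 ± 6.78. W/o Cyss ACSL5 was again higher, by 0.83 ± 0.16 (adjusted p = 0.00351), and MBOAT1 was lower, by -0.38 ± 0.12 (adjusted p = 0.0368). The call of MBOAT1 was lost without replicate 1 of GFP w/o Cyss, at -0.22 (adjusted p = 0.172), and without replicate 2 of NRF2 w/o Cyss, at -0.33 (adjusted p = 0.14). These were the 1 higher and 1 lower call of 61 there, against 5.98% and 4.09% of all genes.

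In the interaction 3 of 61 list genes were called higher and 10 lower, against 8.97% and 6.13% of all genes. Of the 8 tested enzymes on the list of other peroxide and aldehyde removal, 5 were called lower. The 3 higher were PDSS2 (0.28), which makes the tail of coenzyme Q, the coenzyme Q chaperone gene COQ10B (0.18) and FAR2 (0.22), a fatty acyl-CoA reductase of ether lipid synthesis. None of these 3 was called with DESeq2's Wald test or with libraries scaled by size alone, and FAR2 was at 0.09 after GC and length correction. The 5 lower ones with the smallest adjusted p were PLA2G6 (-0.56), GSTA4 (-0.30), ALDH3A2 (-0.36), COQ10A (-0.47) and GPX8 (-0.19), an endoplasmic reticulum peroxidase. COQ10A was lost with DESeq2's Wald test (adjusted p = 0.105) and without replicate 3 of NRF2 with Cyss (0.11) or replicate 2 of GFP w/o Cyss (0.112), and GPX8 without replicate 2 of NRF2 with Cyss (0.11) or replicate 1 of GFP w/o Cyss (0.104).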

How the data were processed

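Single-end mRNA reads of 12 Hs 578T libraries, made with a kit that does not mark strand, were mapped by the authors to hg19 with TopHat 2.1.0 and counted on exons with HTSeq 0.11.2, without strand, in its intersection-nonempty mode; the version of the counting annotation is not given in the sources used here. The deposited values are raw counts per gene symbol, 1 table a library. As in the study's methods, 523 genes named as rRNA were removed, leaving 55242.

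R 4.3.3 with edgeR 4.0.16 was used. For each of 4 comparisons, 6 libraries were scaled by TMM and genes averaging 10 or more normalized counts in one of the groups entered the quasi-likelihood test, whose p-values were adjusted by the Benjamini-Hochberg method, a call needing an adjusted p under 0.1 and a log2FC over 0.32 in size, thresholds stated for the study's plots. The interaction used 12 libraries and an adjusted p under 0.1. Printed counts share 1 scale over 12 libraries, SEs are of the fitted log2FC, and 95% intervals use its t distribution. The script was tested on simulated data. With 3 against 3 libraries an exact permutation test could not go below 0.1, so none was used.

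The 8 genes and the lists were chosen with earlier results of these data known. Named beside the 8 were called list genes with the 5 smallest adjusted p per comparison and direction, and the 3 genes most like each. Positions, lengths and GC content came from GENCODE 44 on GRCh37, where 33529 symbols were found as listed and 1847 under a newer name, with GC values for 83.3 to 84.0% of genes tested; promoters came from RefSeq. No 2 libraries of a group agreed within sampling noise (chi-square per degree of freedom 2.18 to 12.6). Alternatives were DESeq2 1.42.0 (size factors, Wald test), library size alone, other filters and thresholds, all 12 libraries in 1 fit, a replicate block, each library left out and, chosen after seeing the data, a correction for GC content and transcript length.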

Additional observations from a re-analysis of the deposited data

Results flagged for a closer look

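The responses to Cyss deprivation differed between NRF2 and GFP cells, by the interaction test at an adjusted p under 0.1, for 2 of the 8 genes, both higher. Of 61 list genes 3 were called higher and 10 lower, where 8.97% of all genes were called higher and 6.13% lower. Named here are the 3 higher and, of the 10 lower, the 5 with the smallest adjusted p. ACSL4 differed by 0.47 on the log2 scale (higher in NRF2 cells) and ACSL3 by 0.18, a call lost in 11 of 20 alternatives. The list genes with a higher response in NRF2 cells were PDSS2 at 0.28, COQ10B at 0.18 and FAR2 at 0.22, lost in 10, 12 and 14 of 20 alternatives. The 5 named with a lower response were PLA2G6 at -0.56, GSTA4 at -0.30, ALDH3A2 at -0.36, COQ10A at -0.47 and GPX8 at -0.19. COQ10A was lost with DESeq2's Wald test (adjusted p = 0.105). COQ10A and GPX8 were both lost in some fits that left out 1 library (adjusted p of 0.11 and 0.112 for COQ10A, 0.11 and 0.104 for GPX8). The fitted responses of PLA2G6, COQ10A and GPX8 were 0.14, 0.10 and 0.12 in GFP cells and -0.42, -0.37 and -0.08 in NRF2 cells. ALDH3A2 and GSTA4 had negative values in both, -0.33 and -0.08 in GFP cells and -0.68 and -0.38 in NRF2 cells.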

How the results depend on the processing

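For the 8 genes, 40 results were recomputed under 672 alternatives in all: 622 kept their direction and their side of the threshold, 15 lost a call, 17 gained one and 18 changed sign, none of the last past the threshold. Causes were not tested. With no fold threshold, calls among the 8 became 3 in the NRF2-cell response, 2 and 1 in NRF2 against GFP cells with and w/o Cyss, and calls over all genes (higher, lower) 543 and 490 (GFP response), 2633 and 2379 (NRF2 response), 724 and 398 (with Cyss), 2425 and 2551 (w/o Cyss). GC and length correction left 0 of the 8 called in the NRF2 response and 1 in the interaction, and 440 genes lower in NRF2 against GFP cells w/o Cyss; it turned GPX4 to -0.0032 (GFP response), 0.01 (NRF2 response), 0.06 (w/o Cyss) and 0.01 (interaction), and ACSL3 to 0.0048 (GFP response) and -0.01 (w/o Cyss). In the interaction, 1 of the 8 was called without a low-count filter and 1 at an adjusted p under 0.05, where 528 genes were lower. Library size alone gave 1397 lower in the NRF2 response and 1981 lower in the interaction, and turned LPCAT3 to -0.05 in the NRF2 response. The DESeq2 Wald test gave 155 higher and 15 lower with Cyss and 432 lower w/o Cyss. Genes lower with Cyss were 17 at an adjusted p under 0.05, 19 with all 12 libraries in the fit and 66 with no low-count filter, which gave 185 lower in the GFP response.

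With 1 library left out, calls among the 8 ran from 0 to 2 (NRF2 response), 0 to 1 (with Cyss and w/o Cyss) and 1 to 3 (interaction). Genes lower in the GFP response ran from 55 (without replicate 1 of GFP with Cyss; 57 without replicate 2 of GFP w/o Cyss) to 133. With Cyss, genes higher ran from 142 (without replicate 1 of NRF2 with Cyss; 155 without its replicate 3) to 254, and genes lower from 15 (without replicate 3 of NRF2 or of GFP with Cyss; 18 without replicate 1 of NRF2 with Cyss) to 56 (without replicate 2 of GFP with Cyss). Genes lower w/o Cyss ran from 425 (without replicate 2 of GFP w/o Cyss; 464 without its replicate 1) to 840. In the interaction, genes higher ran from 913 (without replicate 2 of GFP w/o Cyss; 964 without replicate 3 of NRF2 with Cyss) to 2119, and genes lower from 482 (without replicate 2 of GFP w/o Cyss) to 1562, with 590, 609, 666 and 705 without replicate 3 of NRF2 with Cyss, replicate 1 of GFP with Cyss, replicate 1 of GFP w/o Cyss and replicate 3 of GFP with Cyss. The log2FC that changed sign ran, in the GFP response, from -0.01 to 0.10 (GPX4), -0.09 to 0.002 (LPCAT3) and -0.09 to 0.05 (POR), in the NRF2 response from -0.02 to 0.04 (LPCAT3), with Cyss from -0.01 to 0.09 (DHODH), w/o Cyss from -0.0041 to 0.10 (AIFM2), -0.13 to 0.06 (DHODH) and -0.05 to 0.04 (GPX4), and in the interaction from -0.15 to 0.03 (DHODH).

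Libraries of different groups share replicate numbers, but nothing in the labels ties the numbers to a shared batch, and in no comparison was every correlation of same-numbered deviations over 0.1: the 12 ran from -0.08 to 0.17. The best match was the own number in 7 of 12, including each of the 3 within NRF2 cells, a hint from the data and not the design. A replicate block moved calls in the NRF2 response to 1192 higher and 930 lower and in the interaction to 1866 and 1307, where AIFM2 passed at -0.24 (adjusted p = 0.0941), which made 3 of the 8 called. Depth limits GCH1 most, with 14 to 46 reads a library.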
